A study of Mus musculus with 6 samples.

Results

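The genes of the proteasome were compared between cultured aortic smooth muscle cells of Pdk4fl/fl and Pdk4SMKO mice. Members were the protein-coding genes whose symbol begins with Psm, 1 of the letters a to g and a number, except *Psmb8*, *Psmb9* and *Psmb10*, the inducible subunits. This rule took 44 of the 41721 genes in the table. Of these, 15 encode subunits of the core particle, 16 encode subunits of the regulatory particle, and 12 encode assembly chaperones, other activators or an inhibitor. The last, *Psmc3ip*, carries a similar symbol but encodes a meiotic recombination protein. The genes named *Psmb5*, *Psmd2* and Psme2b were not analysed here by name.

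The proteasome degrades proteins that have been tagged with ubiquitin. Its core particle is a barrel of stacked rings, in which alpha subunits form the outer rings and the gate, and beta subunits form the inner rings and carry the protease sites. The regulatory particle caps the barrel, with a base of ATPases that unfold substrates and a lid that removes ubiquitin. The subunits are needed in fixed proportion, and their genes are often transcribed together through NFE2L1, a factor that is itself degraded by the proteasome. In smooth muscle, as in other cells, the system clears misfolded and short-lived regulatory proteins.

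Both groups were smooth muscle cells released from the abdominal aorta with collagenase, stained for ACTA2 and grown in culture (MASMCs), and both received Ang II, the peptide hormone angiotensin II. Pdk4fl/fl cells carry loxP sites around exons of *Pdk4*, a kinase that inhibits pyruvate dehydrogenase, and Pdk4SMKO cells carry in addition a Y-linked Myh11-Cre transgene that recombines them in smooth muscle after tamoxifen, which mice of both genotypes received. There were 3 libraries per genotype. The study calls them biological replicates, but no label ties them to separate animals, so the p-values measure the spread between these cultures, which may be technical.

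The targeted gene, *Pdk4* (chromosome 6, 2392986 to 2408102), held counts of 570, 639 and 421 in Pdk4fl/fl and of 110, 182 and 141 in Pdk4SMKO libraries. All Pdk4SMKO libraries lay below all Pdk4fl/fl libraries, with a log2 fold change of -2.34 (SE 0.22, adjusted p = 4.49e-06). The libraries held 16526044 to 22481670 counts each. On log2 CPM of the tested genes, libraries of 1 genotype correlated at 0.981 or more, and libraries of different genotypes at 0.748 or less. The 2 groups of cultures also differed in markers of other cells. All 7 mesothelial markers tested were higher in Pdk4SMKO cells, with a summed level of 74.2 to 99.99 CPM (counts scaled to a common library total by TMM) in Pdk4fl/fl and 723 to 1325 in Pdk4SMKO libraries, while *Krt8* was too low to be tested. Of 6 macrophage markers tested, 5 were higher and 1 was lower, with sums of 21.4 to 38.2 and 9.61 to 29.6 CPM. The lower one, *Cd68*, had 37.9, 34.5 and 21.3 CPM against 6.8, 3.1 and 2.9 CPM, so the sums followed this gene. *Adgre1*, *C1qa*, *C1qb* and *Tyrobp* were at 0 in every Pdk4fl/fl library. Of 6 fibroblast markers, 3 were higher and 1 was lower, with sums of 141 to 173 and 1320 to 2774 CPM. *Col14a1* alone had 27.8, 21.9 and 26.0 CPM against 1042, 2166 and 2013 CPM, and *Dcn* had 97.25, 79.1 and 101.6 CPM against 245, 554 and 504 CPM. The sums followed these genes. The other higher gene was *Lum*, the lower one was *Dpt* (log2 fold change -1.015), and *Pdgfra* and *Pi16* did not pass the test. Both endothelial markers that could be tested were lower (14.1 to 23.7 and 2.84 to 5.62 CPM in sum over 6 markers), and *Cdh5* and *Emcn* were at or near 0 in all libraries. Of 7 proliferation markers, 4 were lower and none was higher (449 to 521 and 247 to 416 CPM). Of 7 smooth muscle markers, 4 were higher and 3 were lower (770 to 798 and 715 to 945 CPM in sum). The lower ones were *Tagln* (log2 fold change -2.26), *Smtn* (-2.28) and *Cnn1* (-1.495), and the higher ones *Acta2* (1.59), *Myh11*, *Lmod1* and *Des*. *Acta2* had 243, 188 and 268 CPM in Pdk4fl/fl and 768, 714 and 621 CPM in Pdk4SMKO libraries, so the Pdk4SMKO sums followed this gene. Both groups held markers of the labelled cell type, but *Myh11* reached at most 2.72 CPM and *Des* at most 1.09 CPM in any library. *Xist*, the RNA of the inactive X chromosome in female cells, had 3, 4 and 5 counts in Pdk4fl/fl and 610, 347 and 321 in Pdk4SMKO libraries, although the mice are described as male. The part of these differences in the results below was not tested, and they cannot be told apart from the genotype.

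Most proteasome genes were lower in Pdk4SMKO cells. Of the 44 members, 42 passed the filter on low counts, and 29 of these were lower and 6 were higher at an adjusted p under 0.05 (edgeR's quasi-likelihood test with Benjamini-Hochberg adjustment over all 14085 genes tested). The remaining 7 did not pass the test. Of all genes tested, 37.1% were lower and 42% were higher. With a fold change of at least 2 as well, 19 members were lower and 2 were higher, against 26.5% and 32.8% of all genes. The median log2 fold change was -0.95 over the 42 members and 0.12 over all genes tested. For 39 members the libraries of the genotypes did not overlap, which held for 81.8% of all genes, so this count is close to the background. For each such gene the exact two-sided permutation test gave p = 0.1, the smallest value that 3 libraries against 3 allow. The 2 members that were not tested, *Psma8* and *Psmb11*, are known from testis and thymus. *Psma8* had 0 counts in all 6 libraries, where 3 counts would be 0.133 to 0.182 CPM, and *Psmb11* had 0, 14 and 1 counts in Pdk4fl/fl and 1, 0 and 0 in Pdk4SMKO libraries.

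The direction of the smaller changes depends on how the libraries are scaled. The TMM factors were 0.784 to 0.838 for the Pdk4fl/fl and 1.21 to 1.26 for the Pdk4SMKO libraries. Scaling by library size alone raised the median log2 fold change of all genes by 0.61, to 0.72, and then 20 members were lower and 12 were higher, where 25.2% of all genes were lower and 55.0% were higher. Relative to the median of all genes, the core particle stood at -1.07 with TMM and -1.06 with library size alone, and the regulatory particle at -1.11 and -1.10. A change of scaling factors moves all genes nearly alike, so these distances were bound to stay and are a description. Fewer cells of a type and less RNA per cell cannot be told apart in these bulk libraries.

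**Figure D1:**
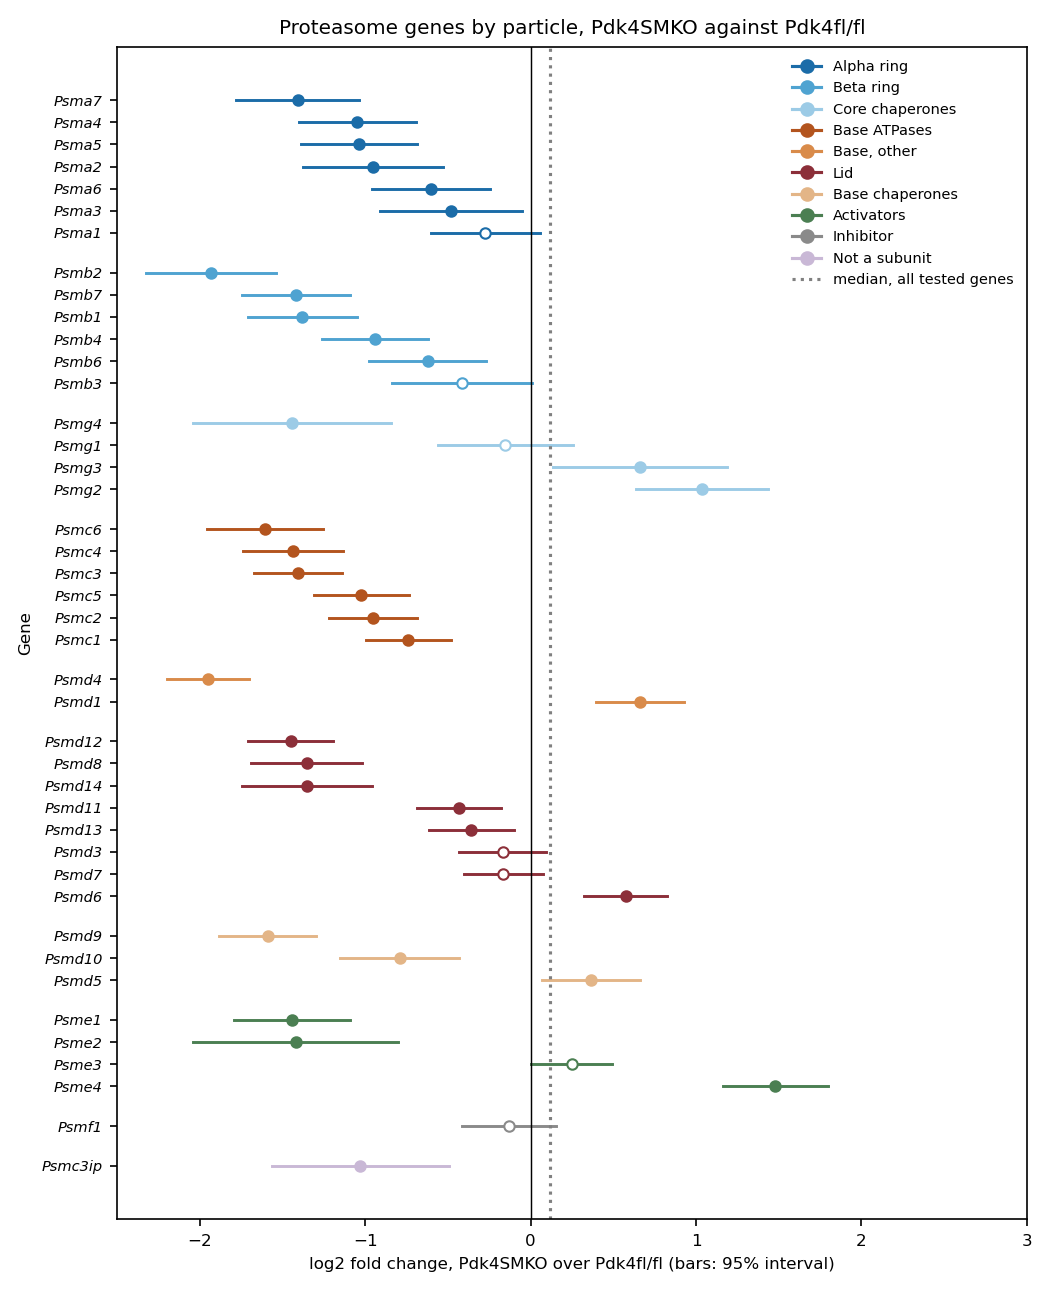
Log2 fold change of the 42 tested genes, Pdk4SMKO over Pdk4fl/fl, in groups by their place in the proteasome. Points are fitted values and bars 95% intervals, filled points passed the test, and the dotted line is the median of all genes tested (0.12). The points of the core particle all lie left of 0, and Psme4 (1.48), Psmg2 (1.04), Psmd1 and Psmg3 (both 0.66) and Psmd6 (0.57) lie farthest right.

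The alpha ring forms the outer wall of the core particle and the gate through which substrates enter. Of its 7 tested subunits, 6 were lower in Pdk4SMKO cells and none was higher. *Psma7* had 218, 232 and 338 CPM in the Pdk4fl/fl libraries and 98.5, 98.04 and 100.4 CPM in the Pdk4SMKO libraries. Its Pdk4SMKO values were almost level, and the spread lay in Pdk4fl/fl replicate 3. The log2 fold change was -1.41 (SE 0.17, adjusted p = 2.45e-05), the most negative of the ring. *Psma4* had 189, 197 and 277 CPM in Pdk4fl/fl against 110.9, 98.7 and 111.3 CPM in Pdk4SMKO libraries. *Psma5* had 92.6, 102.4 and 136 CPM against 54.6, 49.9 and 56.9 CPM. Both were without overlap, with log2 fold changes of -1.05 (SE 0.16, adjusted p = 0.00014) and -1.04 (SE 0.16, adjusted p = 0.00014). *Psma2* fell by 0.95 on the log2 scale (SE 0.19, adjusted p = 0.00091), and did not pass with library size alone (-0.34). *Psma6* (-0.60, adjusted p = 0.0057) and *Psma3* (-0.48, adjusted p = 0.041) passed the test with TMM but had log2 fold changes of 0.0088 and 0.14 with library size alone. *Psma3* no longer passed without Pdk4fl/fl replicate 3 (-0.21) or without Pdk4SMKO replicate 1 (-0.47), 2 (-0.44) or 3 (-0.50). It also missed the threshold with upper-quartile factors (-0.27) and a minimum of 10 counts throughout (-0.38), and rows described as copies of it held 16.4% as many counts. *Psma1* had 59.7, 54.2 and 78.2 CPM in Pdk4fl/fl and 52.3, 52.9 and 53.7 CPM in Pdk4SMKO libraries. The lowest Pdk4fl/fl and the highest Pdk4SMKO library almost met, and the log2 fold change was -0.27 (95% interval -0.61 to 0.06, adjusted p = 0.11), or 0.34, which passed the test, with library size alone.

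The beta ring holds the protease sites. Of its 6 tested subunits, 5 were lower in Pdk4SMKO cells and none was higher. *Psmb2*, a non-catalytic subunit (chromosome 4 from 133274130 to 133307574 in the table), had 112, 118 and 172 CPM in Pdk4fl/fl and 36.2, 32.3 and 36.6 CPM in Pdk4SMKO libraries. The 3 Pdk4SMKO values were close together and far below all Pdk4fl/fl values. Its log2 fold change of -1.93 (SE 0.18, adjusted p = 3.51e-06) was the most negative in the core particle.

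*Psmb6* and *Psmb7* encode the caspase-like and the trypsin-like protease subunit. *Psmb5*, the remaining catalytic subunit, was not analysed here. *Psmb7* had 149, 163 and 213 CPM in the Pdk4fl/fl libraries and 65.6, 64.2 and 66.4 CPM in the Pdk4SMKO libraries, a log2 fold change of -1.42 (SE 0.15, adjusted p = 9.07e-06). *Psmb7* lies across *Nek6* on the opposite strand, which held 122% as many counts, and the use of strand in counting is not given in the sources used here. *Psmb6* had 93.7, 107.2 and 142 CPM against 80.3, 71.9 and 70.3 CPM. Its groups lay closer together than those of *Psmb7* and did not overlap, with a log2 fold change of -0.62 (SE 0.16, adjusted p = 0.0045), or -0.0091 with library size alone. Within a library, the ratio of *Psmb6* to *Psmb7* counts, which no scaling can move, was 0.629, 0.659 and 0.667 in Pdk4fl/fl and 1.23, 1.12 and 1.06 in Pdk4SMKO libraries.

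*Psmb1* was the most abundant core subunit per length. It had 328, 356 and 466 CPM in Pdk4fl/fl and 138, 149 and 154 CPM in Pdk4SMKO libraries, without overlap (log2 fold change -1.38, SE 0.15, adjusted p = 1.22e-05). *Psmb4* fell by 0.94 on the log2 scale (SE 0.14, adjusted p = 0.00015). *Psmb3* had 78.1, 86.4 and 131.6 CPM in Pdk4fl/fl and 81.4, 67.1 and 73.6 CPM in Pdk4SMKO libraries, and Pdk4SMKO replicate 1 lay above Pdk4fl/fl replicate 1. It did not pass the test (log2 fold change -0.41, 95% interval -0.84 to 0.01, adjusted p = 0.068), and its log2 fold change was 0.20 with library size alone. It passed as lower without Pdk4fl/fl replicate 1 (-0.55), with RLE factors (-0.44), without the filter (-0.36) and with the trend on gene length removed (-0.45).

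Pdk4fl/fl replicate 3 was the highest of its genotype for all 13 tested core subunits, for 14 of 16 regulatory subunits and for 10 of the 13 other members. Its median log2 ratio to the other Pdk4fl/fl libraries was 0.52 over the core particle and 0.16 over the regulatory particle. Pdk4SMKO replicate 3 was likewise the highest of its genotype for 10 of 13 core subunits, and for 7 of 16 regulatory subunits. Its median log2 ratio to the other Pdk4SMKO libraries was smaller, at 0.087 over the core particle. The median coefficient of variation of the core subunits was 21.9% in Pdk4fl/fl and 6.70% in Pdk4SMKO libraries, and that of the regulatory subunits 8.70% and 4.37%. Without Pdk4fl/fl replicate 3 the median log2 fold change of the core particle was -0.81 in place of -0.95. The plot of each gene by library shows the core subunits highest together in Pdk4fl/fl replicate 3.

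**Figure D2:**
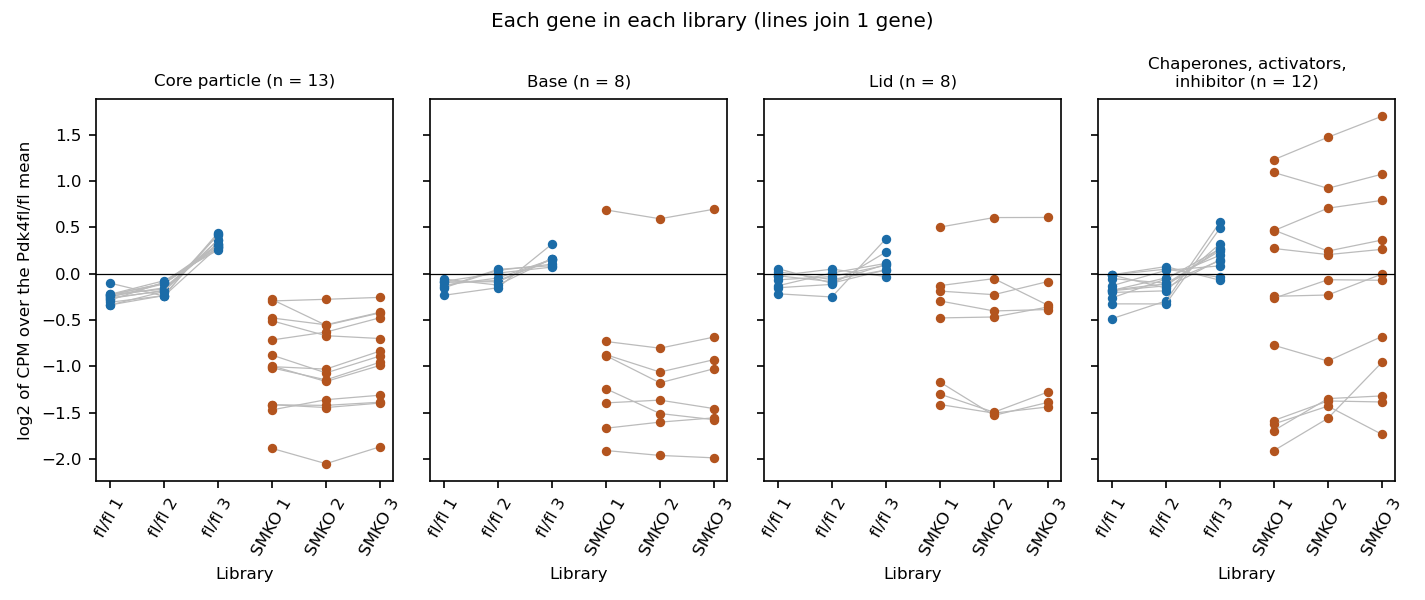
Level of each tested gene in each library as the log2 of its CPM over the mean of the 3 Pdk4fl/fl libraries, for 13 core subunits, 8 base and 8 lid subunits of the regulatory particle, and 12 chaperones, activators and the inhibitor. Each point is 1 gene in 1 library and lines join the values of 1 gene within a genotype. Core subunits are all highest in Pdk4fl/fl replicate 3, while a single base subunit (Psmd1) and a single lid subunit (Psmd6) lie clearly above 0 in the Pdk4SMKO libraries.

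The base of the regulatory particle has a ring of 6 ATPases that unfold the substrate and open the gate. All 6 genes were lower in Pdk4SMKO cells, with a median log2 fold change of -1.22. *Psmc6* had 301, 319 and 442 CPM in the Pdk4fl/fl libraries and 111.4, 117 and 120.4 CPM in the Pdk4SMKO libraries. This was the most negative ATPase, with a log2 fold change of -1.61 (SE 0.16, adjusted p = 5.90e-06). *Psmc4* had 149.4, 151.4 and 177 CPM against 67.4, 55.9 and 53.4 CPM, and fell by 1.44 on the log2 scale (SE 0.14, adjusted p = 4.61e-06). *Psmc3* had 346, 365 and 419 CPM against 143, 146 and 137 CPM, and fell by 1.41 (SE 0.12, adjusted p = 2.20e-06). An unnamed gene on the strand opposite to *Psmc3* held 16.5% as many counts. *Psmc5* had 154.8, 155.1 and 184 CPM against 89.2, 72.8 and 80.8 CPM and without overlap (log2 fold change -1.02, SE 0.13, adjusted p = 3.88e-05). *Psmc2* fell by 0.95 (SE 0.12, adjusted p = 3.72e-05). *Psmc1* had 224, 256 and 263 CPM in Pdk4fl/fl and 149, 142 and 154 CPM in Pdk4SMKO libraries. It was the least changed ATPase (log2 fold change -0.74, SE 0.11, adjusted p = 0.00017), and did not pass with library size alone (-0.13). No ATPase had overlapping groups.

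The other base subunits differed in direction. *Psmd4*, a receptor that binds ubiquitin chains (chromosome 3 from 99281516 to 99291374), had 325, 346 and 362 CPM in Pdk4fl/fl and 91.6, 88.3 and 86.7 CPM in Pdk4SMKO libraries. The values within each genotype were close together, and the log2 fold change of -1.95 (SE 0.11, adjusted p = 1.48e-07) was the most negative of all members. *Psmd1*, the large scaffold of the base (chromosome 1 from 90625056 to 90706265), had 102.1, 97.6 and 119 CPM in Pdk4fl/fl and 171, 160.4 and 172 CPM in Pdk4SMKO libraries. Here every Pdk4SMKO library lay above every Pdk4fl/fl library, with a log2 fold change of 0.66 (SE 0.12, adjusted p = 0.00049). It did not pass when the trend with gene length was removed (0.24). In counts of the same library, *Psmd1* stood at 0.31 of *Psmd4* on average in Pdk4fl/fl and at 1.89 in Pdk4SMKO cells. A gene without a symbol whose description names *Psmd2*, the other large scaffold (chromosome 16 from 18338305 to 18359798), is no member by the rule. It had 477.3, 494 and 477.0 CPM against 266, 244 and 245 CPM (log2 fold change -0.94, SE 0.11, adjusted p = 2.24e-05), and a near copy, *Gm5422*, carries the same description.

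The lid removes the ubiquitin chain from the substrate. Of its 8 subunits among the members, 5 were lower, 1 was higher and 2 did not pass the test, with a median log2 fold change of -0.40. *Psmd14*, the deubiquitinase of the lid, had 188, 183 and 283 CPM in Pdk4fl/fl and 88.5, 77.3 and 89.9 CPM in Pdk4SMKO libraries. Pdk4fl/fl replicate 3 stood above the others, and the groups did not overlap (log2 fold change -1.35, SE 0.18, adjusted p = 4.85e-05). *Psmd12* had 210, 231 and 248 CPM against 86.2, 80.8 and 84.6 CPM, the most negative change among these 8 members (log2 fold change -1.45, SE 0.12, adjusted p = 1.36e-06). *Psmd8*, the most abundant regulatory subunit per length, had 416, 427 and 543 CPM against 205, 160 and 176 CPM. Every Pdk4fl/fl library lay far above the highest Pdk4SMKO library (log2 fold change -1.35, SE 0.15, adjusted p = 1.46e-05).

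*Psmd6* was the 1 lid gene that was higher, with 59.3, 60.8 and 66.1 CPM in Pdk4fl/fl and 88.0, 94.5 and 94.6 CPM in Pdk4SMKO libraries. The groups were well apart for so small a change (log2 fold change 0.57, SE 0.11, adjusted p = 0.00087). *Psmd11* (-0.43, adjusted p = 0.0050) and *Psmd13* (-0.36, adjusted p = 0.015) were lower with TMM, but had log2 fold changes of 0.17 and 0.25 with library size alone and did not pass with upper-quartile factors (-0.22 and -0.15). *Psmd13* also missed the threshold without Pdk4SMKO replicate 2 (-0.33) or 3 (-0.34), and it overlaps *Sirt3*, which held 9.31% as many counts on the opposite strand. *Psmd3* and *Psmd7*, the latter the inactive partner of *Psmd14*, had log2 fold changes of -0.17 (95% interval -0.43 to 0.09, adjusted p = 0.21) and -0.16 (95% interval -0.41 to 0.08, adjusted p = 0.19). With library size alone both were positive and passed the test (0.44 and 0.44), whereas *Psmd3* passed as lower with the trend on gene length removed (-0.49).

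Assembly of the base is guided by chaperones that bind the ATPases and then leave. *Psmd9* had 71.2, 79.9 and 82.6 CPM in Pdk4fl/fl and 25.3, 28.9 and 23.4 CPM in Pdk4SMKO libraries, with every Pdk4SMKO library far below. This gave a log2 fold change of -1.59 (SE 0.13, adjusted p = 1.90e-06), and *Wdr66*, which overlaps it on the same strand, held 8.14% as many counts. *Psmd10*, known as gankyrin and X-linked, fell by 0.79 (SE 0.16, adjusted p = 0.0011), and did not pass with library size alone (-0.18) or with the trend on gene length removed (-0.15). *Psmd5* had 36.9, 33.4 and 41.3 CPM in Pdk4fl/fl and 51.6, 44.1 and 47.9 CPM in Pdk4SMKO libraries, all above the Pdk4fl/fl values. Its log2 fold change was 0.36 (SE 0.13, adjusted p = 0.027), the smallest of the 6 that were higher, and it was -0.05 when the trend with gene length was removed. It also missed the threshold without Pdk4fl/fl replicate 1 (0.36) or 2 (0.31), or without Pdk4SMKO replicate 1 (0.32) or 3 (0.37).

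The alpha ring is put together on 4 further chaperones that act in pairs, *Psmg1* with *Psmg2* and *Psmg3* with *Psmg4*. Within both pairs the genes differed in their change. *Psmg2* had 7.47, 7.74 and 10.2 CPM in Pdk4fl/fl and 18.1, 16.1 and 17.9 CPM in Pdk4SMKO libraries. It was 2.05-fold higher (log2 fold change 1.04, SE 0.18, adjusted p = 0.00037), and without Pdk4fl/fl replicate 1 or 2 it came just under a fold of 2, at 0.96 at the lowest. Its partner *Psmg1* had 15.7, 15.9 and 22.6 CPM against 15.3, 15.4 and 18.1 CPM. These values overlapped (log2 fold change -0.15, 95% interval -0.56 to 0.26, adjusted p = 0.46), and with library size alone the gene passed as higher (0.46).

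*Psmg4* had 13.3, 15.2 and 27.3 CPM in Pdk4fl/fl and 6.19, 7.17 and 7.11 CPM in Pdk4SMKO libraries. The Pdk4fl/fl libraries varied among themselves and still lay above all Pdk4SMKO libraries (log2 fold change -1.44, SE 0.27, adjusted p = 0.00061). *Psmg3*, at 3.2, 3.51 and 4.16 CPM against 5.00, 5.92 and 6.28 CPM, was among the lowest members that could be tested. It was higher in Pdk4SMKO cells (log2 fold change 0.66, SE 0.24, adjusted p = 0.025), but no longer passed the test without Pdk4fl/fl replicate 1 (0.58) or 2 (0.65), without Pdk4SMKO replicate 2 (0.65) or 3 (0.60), or with the trend on gene length removed (0.53).

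The core particle can also be capped by activators that need no ATP. *Psme1* and *Psme2* form the ring that interferon induces. *Psme1* had 142, 149 and 190 CPM in Pdk4fl/fl and 49.6, 63.0 and 64.2 CPM in Pdk4SMKO libraries. *Psme2* had 69.1, 69.0 and 121.5 CPM against 23.0, 29.3 and 44.5 CPM. Neither gene had overlapping groups, and the log2 fold changes were -1.44 (SE 0.16, adjusted p = 1.27e-05) and -1.42 (SE 0.28, adjusted p = 0.00085). *Psme1* overlaps *Emc9* on the opposite strand, which held 5.61% as many counts. *Psme3*, the nuclear relative of these subunits, had 87.5, 93.1 and 84.1 CPM in Pdk4fl/fl and 106.6, 101.8 and 105.9 CPM in Pdk4SMKO libraries. All 3 Pdk4SMKO values were the higher ones, yet the gene missed the threshold (log2 fold change 0.25, 95% interval 0.005 to 0.49, adjusted p = 0.058). It passed as higher with upper-quartile factors (0.46), library size alone (0.85) or a minimum of 10 counts throughout (0.35).

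*Psme4*, a large single-chain activator known from chromatin and spermatogenesis (chromosome 11 from 29836367 to 29949804), had the highest log2 fold change of all members. It had 40.9, 42.7 and 40.1 CPM in the Pdk4fl/fl libraries and 96.8, 114 and 134 CPM in the Pdk4SMKO libraries. The Pdk4SMKO libraries all lay far above the Pdk4fl/fl libraries (log2 fold change 1.48, SE 0.14, adjusted p = 4.98e-06), and the value stayed between 1.07 and 2.09 under all alternatives. *Psmf1*, an inhibitor of the core particle in isolation, had 44.3, 42.8 and 50.7 CPM against 38.2, 43.9 and 43.8 CPM. Its groups overlapped (log2 fold change -0.13, 95% interval -0.42 to 0.16, adjusted p = 0.37). It passed as higher with library size alone (0.48) and as lower with the trend on gene length removed (-0.55). *Psmc3ip*, the recombination protein, had 6.13, 9.22 and 7.87 CPM against 3.82, 4.28 and 3.29 CPM (log2 fold change -1.03, SE 0.24, adjusted p = 0.0025), and it overlaps *Mlx* on the opposite strand, which held 891% as many counts. It did not pass with library size alone (-0.42).

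Because the subunits are assembled in fixed numbers, the balance between genes was also read within each library, where no scaling enters. For each group the gene with the most negative and the gene with the most positive fold change were set against each other, so that a difference was bound to appear and its size is a description. The ratio of *Psme4* to *Psme1* counts was 0.288, 0.287 and 0.211 in Pdk4fl/fl and 1.95, 1.82 and 2.09 in Pdk4SMKO libraries, a 7.46-fold difference in the means. *Psmd1* over *Psmd4* differed 6.13-fold, *Psmg2* over *Psmg4* 5.30-fold, *Psmd6* over *Psmd12* 4.07-fold and *Psmd5* over *Psmd9* 3.91-fold. Within the core particle the span was narrower, with 2.88-fold for *Psmb3* over *Psmb2* and 2.17-fold for *Psma1* over *Psma7*. The ATPases were closest to a common change, with 1.79-fold for *Psmc1* over *Psmc6*.

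**Figure D3:**
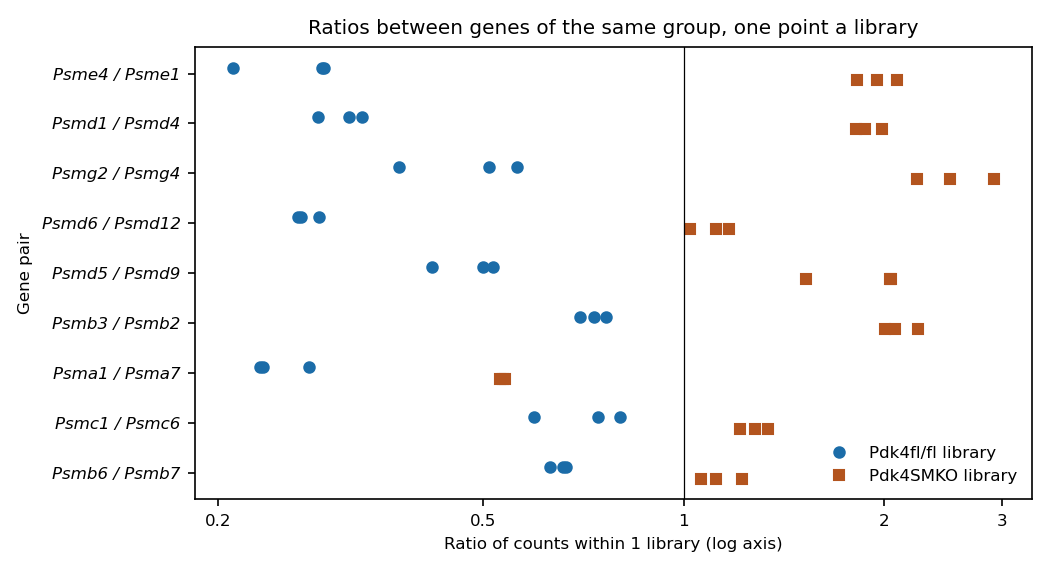
Ratio of the counts of 2 genes within each library, on a log axis, for pairs from the same group of proteasome genes. Circles are the 3 Pdk4fl/fl libraries and squares the 3 Pdk4SMKO libraries. For every pair but Psma1 over Psma7 the ratio lies below 1 in every Pdk4fl/fl library and above 1 in every Pdk4SMKO library.

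Summed over the members alone, the core subunits had 1911, 2051 and 2870 CPM in the Pdk4fl/fl libraries and 1130, 1081 and 1169 CPM in the Pdk4SMKO libraries. The regulatory subunits summed to 3141, 3269 and 3816 CPM and to 1809, 1699 and 1756 CPM. The core sum lacks *Psmb5*. The regulatory sum lacks the ubiquitin receptor *Adrm1*, the small subunit *Sem1* and the gene described as *Psmd2* (means of 482.7 CPM in Pdk4fl/fl and 251.8 CPM in Pdk4SMKO libraries). Without any scaling, the core took 0.160%, 0.166% and 0.225% of all counts in Pdk4fl/fl and 0.142%, 0.131% and 0.144% in Pdk4SMKO libraries, still without overlap but closer together. The ratio of regulatory to core sums was 1.64, 1.59 and 1.33 in Pdk4fl/fl and 1.60, 1.57 and 1.502 in Pdk4SMKO libraries. The Pdk4SMKO ratios lay inside the Pdk4fl/fl range, so the 2 genotypes overlapped in the ratio between these sums. Within the particles the balance between the summed members moved. The beta ring stood at 0.966, 1.01 and 0.917 of the alpha ring in Pdk4fl/fl and at 0.838, 0.810 and 0.784 in Pdk4SMKO libraries. The lid stood at 0.990, 0.934 and 0.949 of the ATPases in Pdk4fl/fl and at 1.29, 1.29 and 1.28 in Pdk4SMKO libraries.

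Between genes, levels were compared as CPM per kilobase of the gene length in the table. In Pdk4fl/fl cells the core subunits ranged 12.1-fold, from *Psma1* (30.5 ± 6.00, SD, n = 3) to *Psmb1* (370 ± 70.4, SD, n = 3), with a median of 85.5. In Pdk4SMKO cells they ranged 7.44-fold, from *Psmb7* (19.1 ± 0.32, SD, n = 3) to *Psmb1* (142 ± 7.94, SD, n = 3), with a median of 39.6. The regulatory subunits ranged 20.5-fold in Pdk4fl/fl cells, from *Psmd1* (14.6 ± 1.56, SD, n = 3) to *Psmd8* (300 ± 45.9, SD, n = 3). In Pdk4SMKO cells they ranged 10.2-fold, from *Psmd11* (11.5 ± 0.53, SD, n = 3) to *Psmd8* (117 ± 14.9, SD, n = 3). Many neighbours in this order did not differ beyond their spread, such as *Psma7* (85.5 ± 21.3) and *Psma5* (83.6 ± 17.3) in Pdk4fl/fl cells. Across the 42 members the log2 fold change had a Pearson correlation of -0.38 with the average level and of 0.33 with the log2 gene length, against -0.22 and 0.13 over all 14085 genes. These are descriptions over genes of the same 6 libraries. The 17 members under 2000 bases had a median log2 fold change of -0.95, the 19 from 2000 to 5000 bases -1.05 and the 6 longer ones 0.12, where all genes had -0.37, 0.14 and 0.38.

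**Figure D4:**
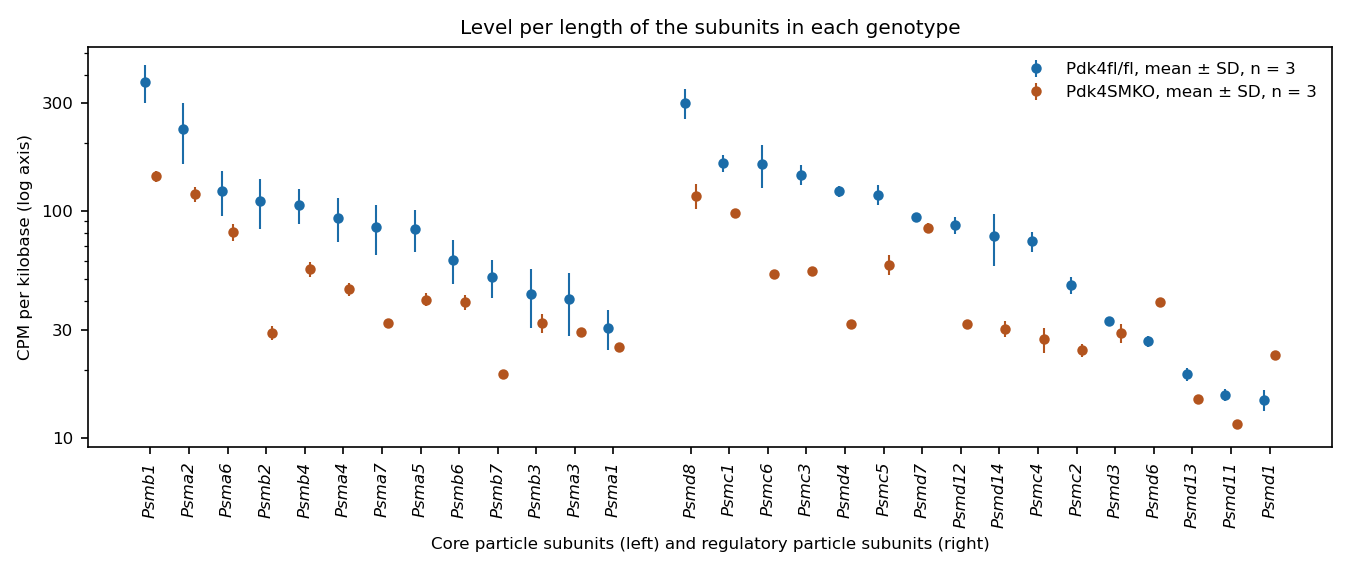
Level per length of the 13 tested core subunits and the 16 regulatory subunits, in CPM per kilobase on a log axis, as mean ± SD of 3 libraries for each genotype. Subunits are ordered by their level in Pdk4fl/fl cells. Psmb1 and Psmd8 are highest in both genotypes, and Psmd6 and Psmd1 are the subunits whose Pdk4SMKO mean lies above the Pdk4fl/fl mean.

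The rest of the ubiquitin-proteasome pathway was read from a list of 32 further genes that could be tested, of which 20 were lower and 6 were higher, with a median log2 fold change of -0.97 (all genes, 37.1% lower and 42% higher, median 0.12). Among the inducible core subunits that the rule left out, *Psmb10* had 65.3, 66.8 and 107 CPM in Pdk4fl/fl and 14.0, 15.9 and 16.6 CPM in Pdk4SMKO libraries (log2 fold change -2.36, SE 0.21, adjusted p = 2.50e-06). *Psmb8* fell by 2.16 (SE 0.35, adjusted p = 0.00025) from 5.00 to 12.7 CPM to 1.74 to 1.98 CPM. *Psmb9* had at most 1.18 CPM in any library and did not pass the test (0.57, adjusted p = 0.24). All 4 further subunits and assembly factors passed. *Pomp*, which completes the assembly of the core, fell by 1.21 (SE 0.19), the ubiquitin receptor *Adrm1* by 1.01 (SE 0.13) and the small subunit *Sem1* by 1.71 (SE 0.31), while *Akirin2*, which brings proteasomes into the nucleus, was higher (0.68, SE 0.14).

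Of 6 deubiquitinases, ligases and other proteins that bind the proteasome, 4 were lower and 1 was higher. The ubiquitin ligase *Ube3a* had 107, 118 and 132 CPM in Pdk4fl/fl and 29.2, 29.8 and 31.7 CPM in Pdk4SMKO libraries (log2 fold change -1.97, SE 0.13, adjusted p = 3.30e-07). *Ube3c*, a ligase that extends ubiquitin chains on stalled substrates, went the other way with 26.7, 20.4 and 23.4 CPM against 86.0, 82.0 and 85.9 CPM (1.85, SE 0.13, adjusted p = 7.42e-07). The deubiquitinase *Usp14* fell by 0.93 (SE 0.15) and did not pass with library size alone (-0.31). Of 10 shuttle factors and parts of the unfoldase, 6 were lower and 1 was higher. *Zfand2a*, which arsenite and heat induce, had 510, 546 and 454 CPM against 47.2, 38.3 and 34.7 CPM (-3.65, SE 0.16, adjusted p = 3.12e-08), and *Zfand5* was higher (0.52, SE 0.13). Of the ubiquitin system proper, the fusion gene *Rps27a* (-1.85, SE 0.32) and the activating enzyme *Uba1* (-1.05, SE 0.12) were both lower.

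Of 7 genes for transcription factors of proteasome genes and for the processing of these factors, 3 were lower and 3 were higher, shares of 42.9% each that are near those of all genes. *Nfe2l1*, the factor that raises proteasome genes when the proteasome is inhibited, had 179, 178 and 151.5 CPM in Pdk4fl/fl and 399, 454 and 403 CPM in Pdk4SMKO libraries. The groups were far apart (log2 fold change 1.30, SE 0.12, adjusted p = 4.71e-06), and the direction was opposite to that of most subunits. Its relative *Nfe2l2* had 225.4, 225.3 and 207 CPM against 149, 139 and 151 CPM (-0.58, SE 0.11, adjusted p = 0.00058), or 0.02 with library size alone. *Nfyc*, a subunit of the CCAAT-binding factor NF-Y, had 131.4, 149 and 131.1 CPM against 12.03, 12.6 and 14.5 CPM (-3.40, SE 0.14, adjusted p = 2.23e-08), the most negative of the 7. mRNA levels do not give the activity of these factors, which was not measured here.

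Since many members moved in 1 direction, their promoters were read from RefSeq (GRCm38.p6, 250 bases before to 50 after the start), where 36 of the 44 members had an entry. The letters TGACNNNGC, the core of the element that NFE2L1 and NFE2L2 bind, were searched on both strands and occurred in 5 of 36 members (13.9%) and in 14.0% of all genes with a promoter. Among tested genes with a promoter the share was 17.2%. The 4 members with the whole motif before the start are shown with the matched letters in capitals, on the strand of the gene, to let the matches be compared. They were lower in Pdk4SMKO cells, while the fifth match, in *Psme4*, runs across the start of transcription and belongs to the member with the highest log2 fold change. The motif was thus in 4 of 25 lower members (16%) and in 1 of 5 higher members (20%).
Psmc6 (chr14:45329587-45329615): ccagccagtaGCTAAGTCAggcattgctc
Psmd9 (chr5:123228149-123228177): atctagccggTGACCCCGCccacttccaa
Psmd12 (chr11:107479278-107479299): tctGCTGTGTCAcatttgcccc
Psmb6 (chr11:70525338-70525356): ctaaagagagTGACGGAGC
In *Psmc6* and *Psmd12* the letters were those of the opposite strand.

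The letters CCAAT, which NF-Y binds, were likewise searched on both strands and do not overlap the first motif. They occurred in 14 of 36 members (38.9%), in 41.1% of all genes and in 42.7% of the tested genes with a promoter. Of 11 core subunits with an entry 7 held them (63.6%), and of 13 regulatory subunits 4 (30.8%). By direction, they were in 10 of 25 lower members (40%), in none of 5 higher members and in 3 of 5 that did not pass the test (60%). With so few promoters these shares are descriptions. The stretches of the tested core subunits are shown to set the letters beside the change of each gene, 1 per gene.
Psma7 (chr2:180042646-180042670, minus strand): ctgcctgtcgCCAATgcgcgctcga
Psma2 (chr13:14613178-14613202, plus strand): tgactctcctCCAATcagagcaaag
Psma6 (chr12:55384183-55384207, plus strand): ccactaggtgCCAATggaattcctg
Psma3 (chr12:70974474-70974498, plus strand): cttagctcttCCAATaccagtttca
Psma1 (chr7:114276200-114276224, minus strand): gagcttcctgCCAATcccacgttct
Psmb3 (chr11:97703381-97703405, plus strand): ggcccgccagCCAATggggaggatt
These 6 genes ranged from -1.41 (*Psma7*) to -0.27 (*Psma1*) in log2 fold change. A match is a run of letters and was not tested as a binding site.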

How the data were processed

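The authors deposited whole-number read counts per gene for 6 RNA sequencing libraries in 1 table, without normalization. The labels name a SMARTER kit and the paper NEBNext Ultra. The aligner, the counting program and the use of strand are not given in the sources used here. The submitters' processing notes name GRCm39, whereas 41096 of the 41721 identifiers are those of Ensembl's C57BL/6NJ annotation. Coordinates are printed as the table gives them.

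The tools were edgeR 4.0.16 and limma 3.58.1 in R 4.3.3. Genes were filtered with filterByExpr, scaled by TMM and tested on genotype with the quasi-likelihood test, with Benjamini-Hochberg adjustment over 14085 genes and a threshold of 0.05. CPM values are TMM-scaled. Replicate libraries differed by more than sampling noise. Counting floors of 3 counts cover counting error alone. With 3 libraries per genotype, exact permutation tests cannot give a p under 0.1. The scripts were tested on simulated data with known changes in a small set of genes, balanced up and down. Most genes differ in the real libraries, so the simulation does not test the scaling.

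Members and gene lists were chosen with earlier results of these data known. Full values are given for the catalytic subunits *Psmb6* and *Psmb7*, the lowest and highest log2 fold change of each list, the activators and the inhibitor, and members past a fold of 2. In the other lists, the extremes among genes that passed are named, as are *Nfe2l1*, *Nfe2l2*, *Pomp*, *Adrm1*, *Usp14* and the inducible subunits, some with a fold change and SE alone. *Xist* and the pairs for within-library ratios were chosen after values were seen. Promoter sequences came from RefSeq tables of GRCm38.p6, whose coordinates were not mixed with those of the counts. *Psmb5*, *Psme2b*, *Paaf1* and *Ddi2* were not analysed here.

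As alternatives, scaling by RLE, by upper quartiles or by library size alone, the filter (none, or a minimum of 10 counts throughout), the threshold, a restriction to protein-coding genes, DESeq2 1.42.0, a replicate block and the omission of each library were tried. Removal of the trend with gene length was added after the data were seen.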

Additional observations from a re-analysis of the deposited data

How the results depend on the processing

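DESeq2, which counted 29 lower and 6 higher members, and RLE factors moved no count of members by over 1.5 times. Of the 19371 genes with DESeq2, 29.55% were lower and 32.68% were higher. With RLE factors, 37.8% of all genes were lower and 41.3% were higher. With library size alone, 12 members were higher in place of 6, core subunits went to 7 lower and 1 higher, and 4 regulatory subunits were higher. With a fold of 2, members went to 2 lower and 5 higher. The medians moved to -0.34 (core) and -0.38 (regulatory), and 11 other pathway genes were higher. Of all genes, 25.2% were then lower and 55.0% higher. Among genes called with TMM, the log2 fold change changed sign for *Psma6* (0.0088), *Psma3* (0.14), *Psmd11* (0.17), *Psmd13* (0.25), Ecpas (0.015), Nploc4 (0.070) and *Nfe2l2* (0.023). It also turned positive for the uncalled *Psma1* (0.34), *Psmb3* (0.20), *Psmg1* (0.46), *Psmf1* (0.48), *Psmd3* (0.44), *Psmd7* (0.44) and Nfyb (0.24). These changes follow the shift of all genes by 0.61. Scaling moves members and other genes nearly alike, so the distance of both particles from the median of all genes was bound to stay. The regulatory median was -0.78 with upper-quartile factors, which moved all genes by 0.21 and left it at -1.11 against their median. It was -0.89 with a minimum of 10 counts throughout, for which the cause was not tested. Removing the trend with gene length, chosen after seeing the data, left 3 members higher, 1 of them a regulatory subunit, and turned *Psmd5* (-0.051). In that fit 31 members were lower, where 40.7% of all genes were lower and 38.9% were higher. With each library left out, members that were lower ranged from 27 to 30 and higher from 4 to 6, and with a fold of 2 from 16 to 22 and from 1 to 2, the 1 without Pdk4fl/fl replicate 1 or without replicate 2. The medians ranged from -1.08 to -0.81 (core) and from -1.05 to -0.92 (regulatory). The shares of all genes under these omissions are not given here. Same-numbered libraries correlated at 0.0396, 0.0604 and 0.176 in their deviations, and different-numbered ones at -0.131 to 0.0533. These values do not settle whether the numbers mark pairs, which the main fit did not assume. With the replicate block, 29 members were lower and 6 higher. Depth limits *Psmg3*, *Psma8* and *Psmb11*.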
